A study of Mus musculus with 36 samples.

Results

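The genes examined were 37 genes of lysosomal digestion and acidification, measured by RNA sequencing in the epididymal white adipose tissue (eWAT) of mice. They were chosen by name as a module, with earlier results of these data known and no threshold on a measured value, and comprised 10 proteases, 8 glycosidases, 3 genes of lipid hydrolysis, 4 lysosomal membrane proteins, 2 transcription factors and 10 genes of the vacuolar proton pump (V-ATPase). All 37 of 37 symbols were found among the 24750 genes of the table, each as 1 gene ID, and all 37 passed the filter on low values (at least 1 normalized CPM, reads scaled to library size, in at least 3 libraries), which 17852 genes passed. The library with fewest reads for any of them still held 64 reads of that gene.

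Lysosomes are acidic organelles in which hydrolases break down proteins, sugars and lipids that arrive by endocytosis, phagocytosis and autophagy. The V-ATPase pumps protons into the lumen: its membrane-bound V0 sector forms the proton path, and its cytosolic V1 sector binds and hydrolyzes ATP. TFEB and TFE3, related transcription factors, bind a short palindrome found near many lysosomal genes, and in obese fat macrophages that take up lipid from adipocytes are known for abundant lysosomes.

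The eWAT came from 36 male mice, 3 in each of 12 groups, 1 library per mouse: WT or Adipoq-CCL19-KI (CCL19-KI), fed a normal diet (ND), a 40% high-fat diet (40% HFD) or a 60% HFD, with ligature-induced periodontitis or without ligature. Diets were given for 10 weeks, from 6 weeks of age, and the ligature, a thread tied around an upper molar at 14 weeks, stayed for 2 weeks until collection at 16 weeks. In CCL19-KI mice the murine *Ccl19* gene is inserted at the *Adipoq* locus, which is active in adipocytes, and endogenous *Adipoq* is kept. The study kept this line by mating homozygotes, and the WT mice came from matings of C57BL/6 mice. Genotype and breeding line therefore cannot be told apart in any comparison of genotypes below. The question was how this module differed between the diets, and then between genotypes and with ligature. The series' design text speaks of ligature for all mice, whereas the labels give 18 mice without it, and the labels were followed here.

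The libraries held 11962228 to 21581595 reads. *Ccl19* was 0.507 to 4.51 normalized CPM in 17 WT mice and 5.57 to 34.6 in 17 CCL19-KI mice, but 2 libraries went against their label: the library labelled WT, ND, without ligature, mouse 2 had 19.2, and the library labelled CCL19-KI, 60% HFD, without ligature, mouse 3 had 0.687. Both were kept under their labels, and the counts of calls, and the counts over strata that moved, are also given without them. Adipocyte markers were high in every library, with a summed level of 5802 to 30616 normalized CPM over 11 genes. Epididymis markers stood out in 2 libraries, the first of the pair just named and mouse 2 of the CCL19-KI group without ligature on the 60% HFD, with mean log2 levels of 9.30 and 7.50, against at most 3.82 elsewhere. Mouse 1 of the ND-fed WT group without ligature had the highest level of lipid-associated macrophage markers among the ND mice (6.43, against at most 3.64). Hepatocyte markers ranged from 9.76 to 36652 in summed level over 9 genes, and 4 of them (*Ttr*, *Fga*, *Fgb* and *Fgg*) were at 0 in some library. All 9 hepatocyte genes and 5 of 9 kidney tubule genes were higher under the 60% HFD than under the ND, and fits with these scores as covariates are given beside the results.

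Of the 33 members with a RefSeq promoter window (GRCm38.p6, 250 bases before to 50 after a start site), 6 carried the 8-letter palindrome TCACGTGA, the core of the TFEB and TFE3 binding site. The stretches of 30 bases around each match are shown, on the gene's strand, because they are the feature these members shared beyond their function, and the capitals mark the palindrome.
Ctsd, chr7:142387908-142387937, minus strand: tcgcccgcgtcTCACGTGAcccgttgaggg
Atp6v1a, chr16:44139373-44139402, minus strand: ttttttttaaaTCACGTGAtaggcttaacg
Atp6v0d1, chr8:105566050-105566079, minus strand: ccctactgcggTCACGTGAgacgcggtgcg
Mcoln1, chr8:3500462-3500491, plus strand: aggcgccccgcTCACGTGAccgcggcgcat
Ctsa, first match, chr2:164833749-164833778, plus strand: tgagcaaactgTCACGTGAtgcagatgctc
Ctsa, second match, chr2:164833766-164833795, plus strand: gatgcagatgcTCACGTGAccagagctaca
Gla, first match, chrX:134601215-134601244, minus strand: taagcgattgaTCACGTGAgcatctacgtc
Gla, second match, chrX:134601182-134601211, minus strand: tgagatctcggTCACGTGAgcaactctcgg
Counted from the RefSeq start, the palindrome began 99 bases before it in *Ctsd*, 132 in *Atp6v1a* and 46 in *Mcoln1*, and it spanned the start in *Atp6v0d1*. In *Ctsa* 1 match lay 13 bases before the start and the other 5 bases after it, and in *Gla* they lay 228 and 195 bases before. The GENCODE M21 spans of *Ctsd*, *Atp6v1a*, *Mcoln1* and *Ctsa* begin farther upstream than these starts and hold the stretches shown. Among all 27025 genes with a window, 1.12% held TCACGTGA, against 18.2% of the members. The 6-letter core CACGTG, which TCACGTGA contains, was in 13 of 33 members (39.4%) and in 8.09% of all genes. Both motifs read the same on both strands, and a match is a run of letters, not a bound site. No window was found for *Atp6v1h*, *Atp6v1b2*, *Ctsb* and *Ctsh*.

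Per kilobase of merged exon (GENCODE M21), *Psap*, the precursor of the saposins that help sphingolipid hydrolases, was the most abundant member under the ND at 403 ± 148 normalized CPM per kb (SD, n = 12). The aspartic protease *Ctsd* followed at 359 ± 203 and the cysteine protease *Ctsb* at 186 ± 93.4, with SDs that overlap those of their neighbours. Under the 60% HFD *Ctsd* came first, at 644 ± 143, and *Psap* second, at 619 ± 112, and these levels differed by less than their SDs. The lowest levels per kb under the ND were those of *Tfeb* (1.84 ± 0.234), the alpha-galactosidase gene *Gla* (2.64 ± 1.64), the lysosomal calcium channel gene *Mcoln1* (3.50 ± 0.342) and *Tfe3* (3.70 ± 0.529). Between mice of a group, the log2 level varied least for *Scarb2* (SD 0.15), *Mcoln1* (0.16) and *Tfe3* (0.17) and most for *Ctsk* (0.76), *Lipa* (0.54) and *Gla* (0.48).

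In eWAT of mice fed the 60% HFD, 24 of the 37 members were higher than under the ND and none was lower (limma, adjusted p below 0.05 over all genes, called below). Of all 17852 genes, 10.2% were called higher in this comparison. The median log2 fold change of the members was 0.42, against 0.01 over all genes, and 36 of 37 were positive. The rises spanned proteases, glycosidases, lipid hydrolases and pump subunits, and were not called in *Tfeb* or *Tfe3*. In whole tissue, more cells of a type and more RNA per cell cannot be told apart, in this and in every comparison below. The same holds for fewer cells and less RNA per cell. Without the 2 libraries that went against their label, 21 were called, 20 of them among the 24, and 8.27% of all genes were higher. Without the 2 libraries rich in epididymis markers and mouse 1 of the ND-fed WT group without ligature, 21 were called as well, and 6.95% of all genes were higher. With the lipid-associated macrophage score as a covariate, 0 of 37 were called by limma (12 at an unadjusted p below 0.05), their median was 0.19, and 0.213% of all genes were higher. That score holds the pump gene *Atp6v0d2* and the lysosomal *Gpnmb*, which are no members, and all its markers rose with the diet. This fit therefore cannot part the members from the markers.

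**Figure D1:**
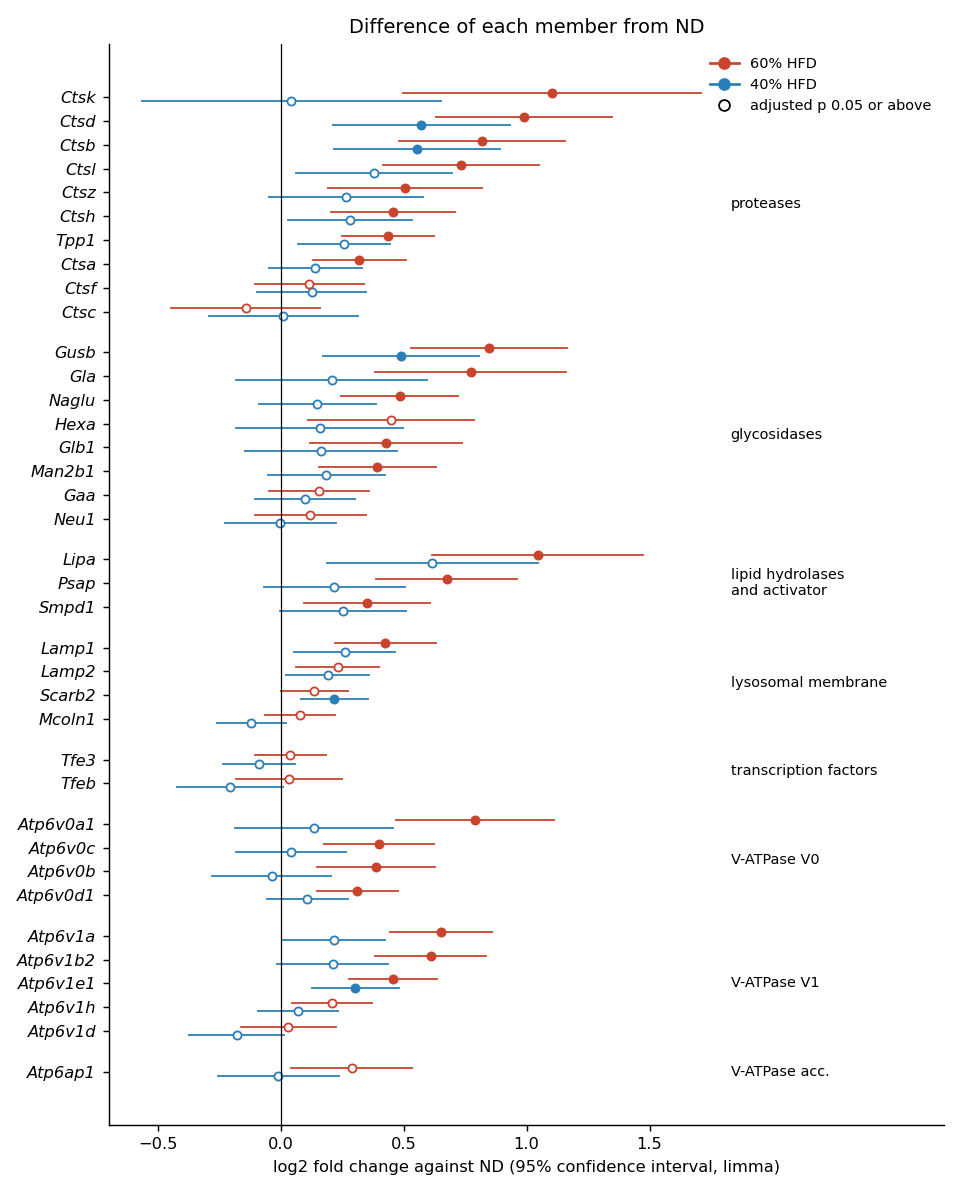
Log2 fold change against ND of each of the 37 members (x axis, averaged over genotype and ligature, bars the 95% confidence interval) for the 60% HFD (red) and the 40% HFD (blue), grouped by role; filled points have a limma adjusted p below 0.05 and open points do not. All 60% HFD points but that of *Ctsc* lie above 0, and the largest are *Ctsk* (1.10), *Lipa* (1.05) and *Ctsd* (0.99).

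Among the proteases, 8 of 10 rose. *Ctsd* (ENSMUSG00000007891, chr7:142375911-142388038, minus strand of GRCm38), which encodes the main aspartic protease of lysosomes, was 362, 755 and 2014 normalized CPM (lowest, median and highest of 12 mice) under the ND, and 969, 1404 and 1978 under the 60% HFD. All 12 mice on the 60% HFD lay above the ND median, and 9 ND mice lay below every one of them. The log2 fold change was 0.99 ± 0.17 (SE; limma adjusted p = 7.4e-04), or 1.98-fold. *Ctsk*, a collagen-degrading cysteine protease best known from osteoclasts, ranged over 11.3, 17.8 and 70.6 under the ND and 15.3, 48.8 and 87.4 under the 60% HFD. Its change was the largest of the members, 1.10 ± 0.30 (limma adjusted p = 0.0126), and 11 of 12 mice on the 60% HFD exceeded the ND median, although the ranges overlapped.

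The other cysteine proteases *Ctsb* and *Ctsl*, which are broad endopeptidases, changed by 0.82 ± 0.16 (limma adjusted p = 0.00185) and 0.73 ± 0.15 (limma adjusted p = 0.00263). *Ctsb* was 474, 1002 and 2519.6 (lowest, median, highest) under the ND and 1104, 1781 and 2446 under the 60% HFD, with 12 of 12 mice above the ND median. *Ctsl* was 234, 328 and 836 under the ND and 294, 623 and 879.9 under the 60% HFD, with 11 of 12 above. The highest ND mouse for *Ctsd*, *Ctsk*, *Ctsb* and *Ctsl* was mouse 1 of the WT group without ligature, at 2014, 70.6, 2519.6 and 836. Smaller rises were called for the carboxypeptidases *Ctsz* (0.51) and *Ctsa* (0.32), the aminopeptidase *Ctsh* (0.46) and the tripeptidyl peptidase *Tpp1* (0.44). The dipeptidyl peptidase *Ctsc* had a log2 fold change of -0.14 (95% interval -0.45 to 0.16) and *Ctsf* one of 0.12, and neither was called.

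**Figure D2:**
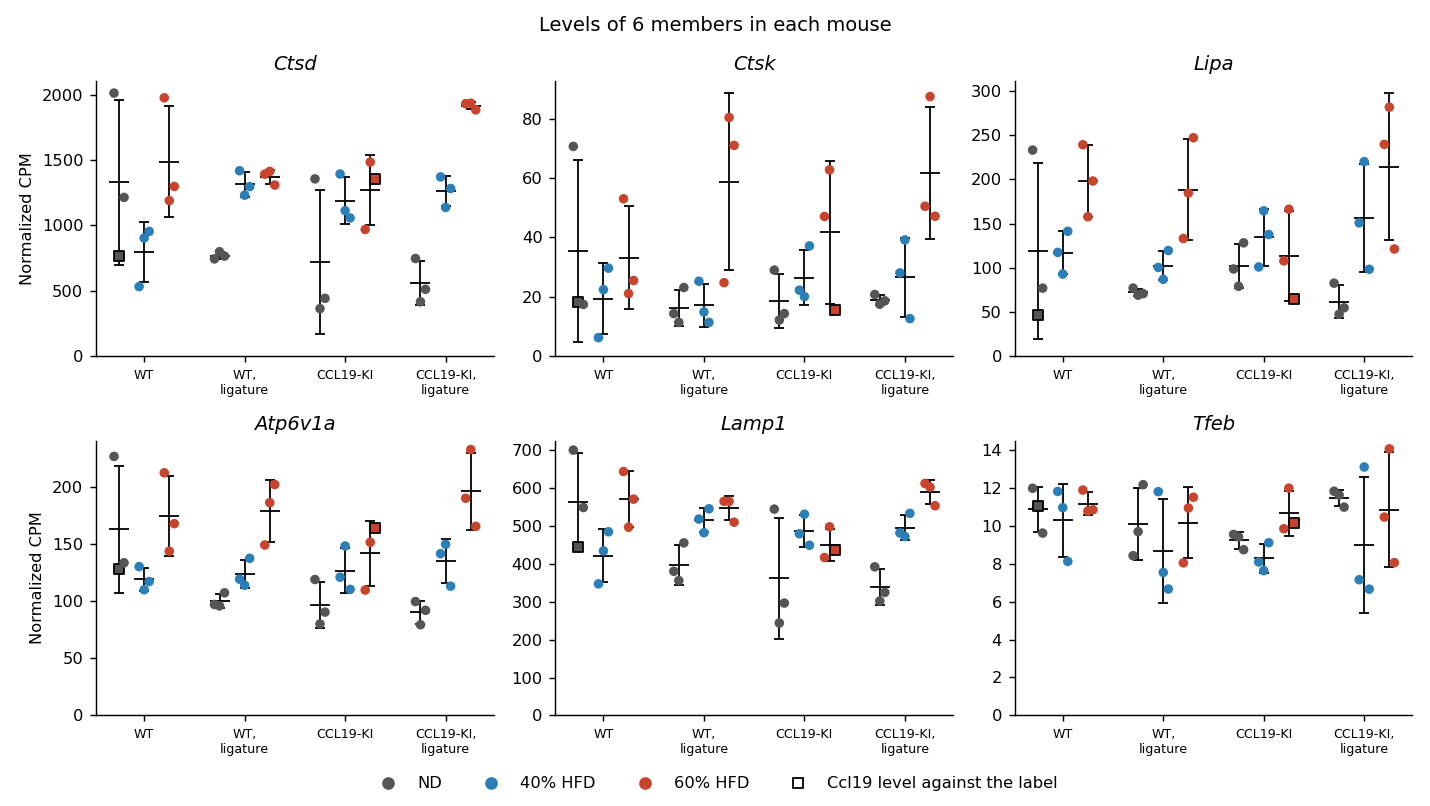
Levels of 6 members in each of the 36 mice (y axis, normalized CPM, linear from 0) by genotype and ligature (x axis) and diet (colour), with the mean and SD of each group of 3 mice in black and squares for the 2 libraries whose *Ccl19* level goes against the label. The 12 mice on the 60% HFD lie at 969 to 1978 for *Ctsd* and at 8.03 to 14.0 for *Tfeb*, against 362 to 2014 and 8.41 to 12.1 in the 12 ND mice.

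Of the glycosidases, 5 of 8 rose. *Gusb*, the beta-glucuronidase that trims glycosaminoglycans, was 24.1, 44.8 and 133 normalized CPM (lowest, median, highest) under the ND and 58.4, 87.7 and 123 under the 60% HFD. Every 60% HFD mouse exceeded the ND median and 9 ND mice lay below all of them, for a log2 fold change of 0.85 ± 0.15 (limma adjusted p = 9.2e-04). *Gla* changed by 0.77, from a median of 7.01 to 14.6, and its highest value, 27.6, was that of the library labelled CCL19-KI whose *Ccl19* was at the WT level. The heparan sulfate enzyme *Naglu* (0.48), the beta-galactosidase *Glb1* (0.43, limma adjusted p = 0.0467) and the mannosidase *Man2b1* (0.39) were also called. *Glb1* and *Man2b1* were no longer called without the 2 libraries that went against their label (limma adjusted p = 0.0963 and 0.0573). *Hexa*, a subunit of beta-hexosaminidase, had medians of 107 and 169 and a log2 fold change of 0.45 (limma adjusted p = 0.0572), and without those 2 libraries its adjusted p was 0.0453. The glycogen-degrading *Gaa* (0.15) and the sialidase *Neu1* (0.12) were not called.

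All 3 genes of lipid hydrolysis rose. *Lipa*, the acid lipase that frees fatty acids and cholesterol from lipids delivered to lysosomes, was 46.8, 76.9 and 233 normalized CPM (lowest, median, highest) under the ND, and 64.5, 175 and 282 under the 60% HFD. All but 1 of the 12 mice on the 60% HFD lay above the ND median, and the exception, at 64.5, was again the library labelled CCL19-KI, without ligature, mouse 3. Its log2 fold change was 1.05 ± 0.21 (limma adjusted p = 0.00182), or 2.06-fold. *Psap* was 628, 1075 and 2169.5 under the ND and 1252, 1703 and 2225 under the 60% HFD. For *Psap*, 10 ND mice lay below every mouse on the 60% HFD, and the log2 fold change was 0.67 ± 0.14 (limma adjusted p = 0.00231). The acid sphingomyelinase gene *Smpd1* was at the edge of the call (0.35, limma adjusted p = 0.0489) and lost it without the 2 libraries that went against their label (limma adjusted p = 0.134).

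Of the 4 membrane proteins 1 rose. *Lamp1*, a heavily glycosylated protein that lines the lysosomal membrane, went from a median of 386 to 558 normalized CPM, a log2 fold change of 0.42 ± 0.10 (limma adjusted p = 0.00576), with 12 of 12 mice above the ND median. Its relative *Lamp2* (0.23, limma adjusted p = 0.051), the glucocerebrosidase transporter *Scarb2* (0.14) and *Mcoln1* (0.08) were not called. The transcription factor *Tfeb* was 8.41, 10.3 and 12.1 under the ND and 8.03, 10.8 and 14.0 under the 60% HFD, so the ranges coincided nearly in full. Its log2 fold change was 0.03 with a 95% interval of -0.18 to 0.25, and that of *Tfe3* was 0.04 with an interval of -0.11 to 0.18. These intervals do not reach the members' median of 0.42. Under quantile normalization, which moved the median of all genes from 0.01 to -0.05, the values for *Tfeb*, *Tfe3* and *Mcoln1* turned to -0.05, -0.07 and -0.02.

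Of the V-ATPase genes, all 4 of the V0 sector, 3 of 5 of the V1 sector and 0 of 1 accessory genes rose. *Atp6v1a*, the catalytic subunit that binds ATP, had the lowest adjusted p of all members. It was 79.6, 98.6 and 227 normalized CPM (lowest, median, highest) under the ND and 110.0, 167 and 233 under the 60% HFD, with 12 of 12 mice above the ND median, and the log2 fold change was 0.65 ± 0.10 (limma adjusted p = 2.2e-04). The regulatory V1 subunit *Atp6v1b2* changed by 0.61 and the stalk subunit *Atp6v1e1* by 0.46, while *Atp6v1h* (0.21) and *Atp6v1d* (0.03) were not called. In the V0 sector *Atp6v0a1*, a proton-path subunit, rose most, from a median of 68.8 to 134 (0.79 ± 0.16, limma adjusted p = 0.00169). Its highest mouse on the 60% HFD, at 263, was the library labelled CCL19-KI with *Ccl19* at the WT level, and without both such libraries the change was 0.66 (limma adjusted p = 0.00566). *Atp6v0c* (0.40), *Atp6v0b* (0.39) and *Atp6v0d1* (0.31) were called as well. *Atp6v0b* lost its call without the 2 libraries (limma adjusted p = 0.0888). The accessory subunit *Atp6ap1* had a log2 fold change of 0.29 (limma adjusted p = 0.0873), and its highest value, 177, was that same library.

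Of 45 other lysosomal and V-ATPase genes tested, 19 rose under the 60% HFD and none fell, with a median log2 fold change of 0.27. *Ctss*, a cysteine protease of antigen-presenting cells, changed by 1.15 (limma adjusted p = 0.00389) and *Cd68*, a lysosomal glycoprotein of macrophages, by 1.12 (limma adjusted p = 0.00341). *Grn*, the progranulin gene, changed by 0.36 (limma adjusted p = 0.0369). *Acp5*, the tartrate-resistant acid phosphatase (0.05), and *Tcirg1*, the V0 subunit known from osteoclasts (0.41, limma adjusted p = 0.0791), were not called. *Atp6v0d2*, the V0 isoform of osteoclasts and macrophages, went from 1.31, 2.22 and 103 (lowest, median, highest) to 5.79, 51.0 and 120.3, a log2 fold change of 2.86 against 0.31 for the member isoform *Atp6v0d1*.

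Marker genes of lipid-associated macrophages moved with this comparison. All 6 on the list (*Trem2*, *Gpnmb*, *Spp1*, *Mmp12*, *Itgax* and *Atp6v0d2*) rose, with a median log2 fold change of 2.07, and none was at 0 in any library. Their summed level was 31.8 to 737 normalized CPM under the ND (median 59.3), 25.8 to 518 under the 40% HFD (88.4) and 80.5 to 1064 under the 60% HFD (371). Of these, *Gpnmb*, a lysosomal glycoprotein, had medians of 31.4, 31.9 and 160.1 normalized CPM. Of 10 general macrophage markers 1 rose and 2 fell, and their summed medians were 1179, 1209.6 and 1224 under the ND, 40% HFD and 60% HFD. With the macrophage score as a covariate, 27 members were called, and the share of all genes called higher was 14.6%, against 10.2% without a covariate. Of 11 adipocyte markers 1 rose and 3 fell, and with the adipocyte score as a covariate 29 members and 12% of all genes were called higher. With the hepatocyte, kidney tubule and epididymis scores as covariates 16 members were called, 15 of them among the 24, at a median log2 fold change of 0.47, and 6.74% of all genes were called higher.

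**Figure D3:**
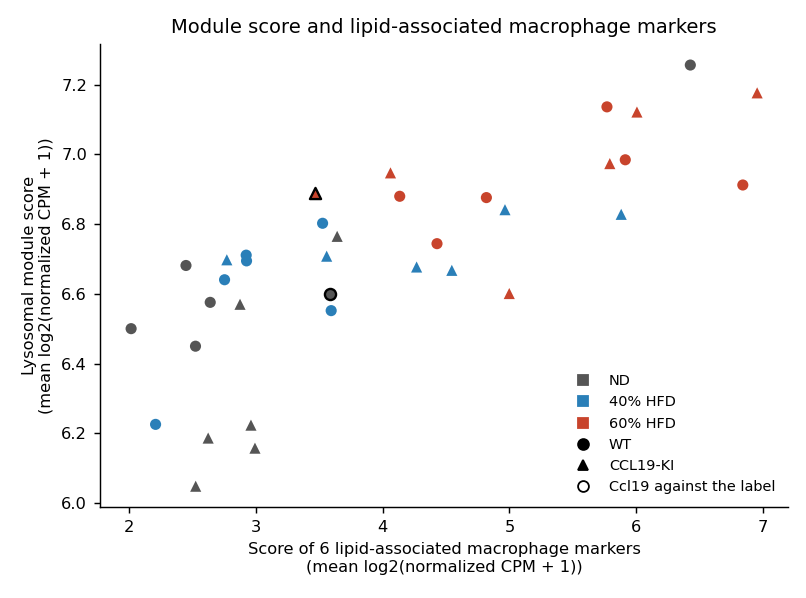
Module score (y axis, mean log2(normalized CPM + 1) of the 37 members) of each of the 36 mice against the mean log2(normalized CPM + 1) of 6 lipid-associated macrophage markers (x axis), with colour for diet, circles for WT, triangles for CCL19-KI and a black outline for the 2 libraries whose *Ccl19* level goes against the label. Mouse 1 of the ND-fed WT group without ligature sits at 7.26 on the module score and 6.43 on the marker score, apart from the other ND mice. The 6 markers include the pump gene *Atp6v0d2* and the lysosomal *Gpnmb*, which are no members.

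Under the 40% HFD fewer members differed from the ND. In all, 5 were called higher and 0 lower, against 5.36% of all genes called higher; the median log2 fold change was 0.16 (-0.02 over all genes) and 30 of 37 were positive. The 60% HFD and 40% HFD comparisons share the ND mice. *Ctsd* had a median of 1185 normalized CPM (531 to 1419) and a log2 fold change of 0.57 ± 0.17 (limma adjusted p = 0.0394), and *Ctsb* a median of 1531 (831 to 1992) and a change of 0.55 ± 0.16 (limma adjusted p = 0.0344). *Gusb* (0.49, limma adjusted p = 0.046), *Atp6v1e1* (0.30, limma adjusted p = 0.0301) and *Scarb2* (0.22, limma adjusted p = 0.0394) completed the calls. For *Ctsd* and for *Ctsb*, 11 of 12 mice on the 40% HFD exceeded the ND median, and the ranges overlapped. For *Lipa* all 12 mice did so, at 86.8 to 220.1, with a log2 fold change of 0.62 (limma adjusted p = 0.0614). The count was 1 without the 2 libraries that went against their label (*Atp6v1e1*), where 4.56% of all genes were called higher, and 2 by edgeR. Leaving out 1 mouse at a time gave 0 to 11 calls: 0 for 6 of the 24 mice, among them mouse 2 of the ND-fed ligatured CCL19-KI group and mouse 3 of the ligatured WT group on the 40% HFD, and 11 for mouse 1 of the ND-fed WT group without ligature. For fits without 1 mouse, here and below, the share of all genes is not given.

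Between the high-fat diets, 2 members were higher under the 60% HFD, where 0.465% of all genes were called higher. Both were pump subunits: *Atp6v0a1* (0.65 ± 0.16, limma adjusted p = 0.045), with medians of 87.5 and 134 normalized CPM, and *Atp6v1a* (0.44 ± 0.10, limma adjusted p = 0.0343), with medians of 120.4 and 167. The mice overlapped for both genes, at 43.6 to 125 and 76.0 to 263 for *Atp6v0a1* and at 110.3 to 150.1 and 110.0 to 233 for *Atp6v1a*. The median over the members was 0.24 (0.01 over all genes), with 34 of 37 positive and 17 at an unadjusted p below 0.05. *Ctsk* had medians of 22.3 and 48.8 and a log2 fold change of 1.06, which did not pass (limma adjusted p = 0.0814). Without the 2 libraries that went against their label it did (1.21, limma adjusted p = 0.0301), which made 3 members called, against 1.03% of all genes called higher. Leaving out 1 mouse at a time gave 0 calls for 9 of the 24 mice, among them mouse 2 of the ligatured WT group on the 40% HFD, and at most 4, without mouse 1 of the CCL19-KI group without ligature on the 60% HFD.

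**Figure D4:**
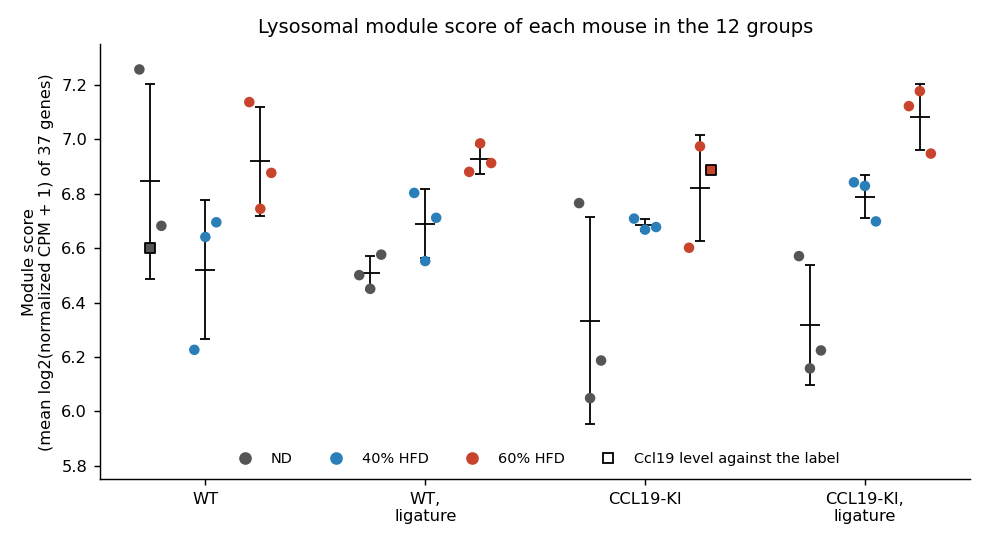
Module score (y axis, mean log2(normalized CPM + 1) of the 37 members) of each mouse by genotype and ligature (x axis) and diet (colour), with the mean and SD of each of the 12 groups of 3 mice in black and squares for the 2 libraries whose *Ccl19* level goes against the label. Group means are 6.32 to 6.85 under the ND, 6.52 to 6.79 under the 40% HFD and 6.82 to 7.08 under the 60% HFD.

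The module score, the mean log2(normalized CPM + 1) of the 37 members in a mouse, put these values in 1 number per mouse, and is given with no test. It was 6.50 ± 0.33 (SD, n = 12) under the ND, 6.67 ± 0.16 under the 40% HFD and 6.94 ± 0.16 under the 60% HFD, with ranges of 6.05 to 7.26, 6.23 to 6.84 and 6.60 to 7.18. Leaving out any 1 mouse moved the difference of the 60% HFD from the ND between 0.400 and 0.490, and that of the 40% HFD between 0.134 and 0.223. In ligatured mice the 60% HFD means exceeded those of the ND by 0.76 in CCL19-KI and by 0.42 in WT mice, and in both cases every mouse on the 60% HFD lay above every ND mouse. Without ligature the difference was 0.49 in CCL19-KI and 0.07 in WT mice, and the mice overlapped. The ND-fed WT group without ligature held both the highest score of all 36 mice (mouse 1, 7.26) and a library against its label (mouse 2, 6.60). Without mouse 1 the difference in that stratum was 0.28, and without mouse 2 it was -0.05.

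Over the 4 combinations of genotype and ligature, 17 members had a higher mean under the 60% HFD than under the ND in all 4, among them *Ctsd*, *Ctsb*, *Ctsk*, *Ctsl*, *Lipa*, *Psap*, *Gusb*, *Lamp1*, *Atp6v1a*, *Atp6v1b2* and *Atp6v1e1*. Only 5 did so once the 2 libraries that went against their label were left out, *Ctsh*, *Ctsl*, *Lipa*, *Man2b1* and *Naglu*. Under the 40% HFD 5 members were higher in all 4 (*Ctsh*, *Lamp2*, *Lipa*, *Man2b1* and *Scarb2*), and 3 without those libraries (*Ctsh*, *Lamp2* and *Scarb2*). For the 60% HFD, 35 of 37 members were higher in CCL19-KI mice without ligature, 34 in ligatured CCL19-KI mice, 31 in ligatured WT mice and 22 in WT mice without ligature. The last number, at a median log2 difference of 0.08, rested on single ND mice: it was 11 without mouse 2, the library against its label (median -0.07), and 29 without mouse 1 (median 0.24). For the 40% HFD the numbers were 35, 34, 27 and 5. The last of these groups thus differed in sign from the other 3, with a median log2 difference of -0.39. There 4 members were positive without mouse 2 of its ND group (median -0.49) and 7 without mouse 1 (median -0.17). The counts over the 4 combinations were taken for the members only, so the matching share of all genes is not known.

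**Figure D5:**
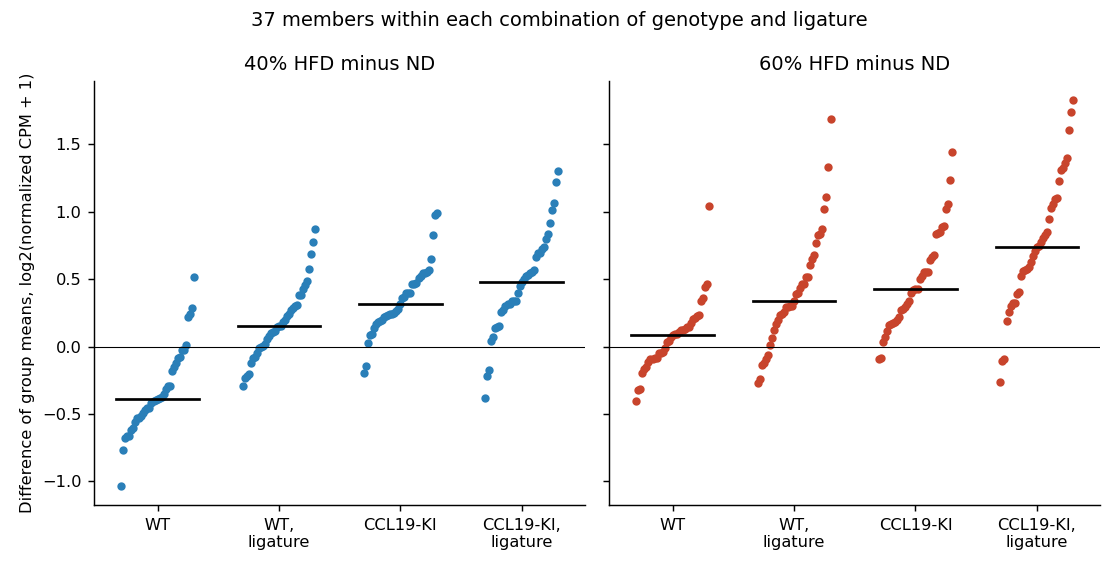
Difference of group means on the log2(normalized CPM + 1) scale (y axis) between each high-fat diet and the ND for the 37 members (points, in rising order) within each combination of genotype and ligature (x axis, 3 mice against 3), with the median as a black line. For the 40% HFD the median is -0.39 in WT mice without ligature and 0.15 to 0.48 in the other 3 combinations.

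*Ctsd* showed this pattern in single mice. Under the ND its level was 2014, 764 and 1215 normalized CPM in WT mice without ligature, 744, 799 and 765 in ligatured WT mice, 1357, 362 and 441 in CCL19-KI mice without ligature, and 747, 415 and 511 in ligatured CCL19-KI mice. Under the 40% HFD the same groups had 531, 903 and 954, then 1419, 1232 and 1298, then 1395, 1113 and 1058, then 1372, 1138 and 1283. Under the 60% HFD they had 1978, 1191 and 1299, then 1393, 1414 and 1309.7, then 969, 1485 and 1359, then 1933, 1937 and 1886. For *Ctsd*, both ligatured genotypes separated fully between the ND and either high-fat diet, and neither group without ligature did. In CCL19-KI mice without ligature, however, the overlap rested on the ND mouse at 1357. The other ND mice of that group, at 362 and 441, lay below all its mice on either high-fat diet. In the fit of all mice, the 60% HFD effect on *Ctsd* was not called different between ligatured and other mice. The share of all genes that separated in this way was not counted.

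In CCL19-KI mice alone, 26 members rose under the 60% HFD against the ND and 0 fell, where 8.55% of all genes were called higher, with a median of 0.61 (0.03 over all genes). *Ctsd* changed by 1.44 ± 0.25 (limma adjusted p = 0.00143), *Atp6v0a1* by 1.28 ± 0.22 (limma adjusted p = 0.00144), *Ctsb* by 1.10 ± 0.23 (limma adjusted p = 0.00455) and *Psap* by 0.99 ± 0.20 (limma adjusted p = 0.00328). In WT mice alone 2 rose, *Lipa* (1.19 ± 0.30, limma adjusted p = 0.0122) and *Atp6v1a* (0.48 ± 0.14, limma adjusted p = 0.0317), where 6.27% of all genes were called higher, and the median was 0.22 (-0.05 over all genes). Every mouse on the 60% HFD lay above every ND mouse for 1 member in CCL19-KI mice (*Atp6v1b2*) and for 0 in WT mice, as for 0.935% and 4.18% of all genes. These counts were 3 (*Ctsk*, *Ctsl* and *Atp6v1b2*) and 0 without the 2 libraries that went against their label, as for 1.74% and 5.21% of all genes. The calls were 22 in CCL19-KI and 1 (*Lipa*) in WT mice once the 2 libraries that went against their label were left out. In that fit 8.27% and 5.44% of all genes were called higher. Without mouse 1 of the ND-fed WT group without ligature 9 members were called in WT mice, without mouse 2 of the ND-fed CCL19-KI group without ligature 15 were called in CCL19-KI mice, and a fit of only the groups compared called 2 in CCL19-KI mice. The share of all genes is not given for these fits.

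The 40% HFD gave 10 calls in CCL19-KI mice, with 3.1% of all genes called higher, and 0 in WT mice, with 0.134% called higher. In CCL19-KI mice *Ctsd* (1.10), *Ctsb* (1.02), *Tpp1* (0.57) and *Atp6v1e1* (0.51) were among them, and the median was 0.38 (-0.0045 over all genes). In WT mice the median was -0.09 (-0.04 over all genes), 3 members had an unadjusted p below 0.05, and edgeR called 0. The calls were 15 and 0 when the 2 libraries that went against their label were left out, where 5.43% and 0.0796% of all genes were called higher. Without mouse 2 of the ND-fed CCL19-KI group without ligature 0 members were called in CCL19-KI mice and without mouse 1 of that group 18 were, and edgeR called 4. The share of all genes is not given beside these counts.

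Whether the diet effect differed between the genotypes was tested as an interaction. No member passed for the 60% HFD, where 0.476% of all genes did in either direction, or for the 40% HFD, where 0% did. For the 60% HFD the difference, CCL19-KI minus WT, had a median of 0.38 over the members (0.07 over all genes), 34 of 37 were positive, and 12 had an unadjusted p below 0.05 (edgeR called 0, with 7 unadjusted). The lowest adjusted p was that of *Atp6v0a1*, whose difference was 0.98 with a 95% interval of 0.34 to 1.62 (limma adjusted p = 0.0907). For the 40% HFD the median was 0.46 (-0.01 over all genes) and 20 were at an unadjusted p below 0.05 (edgeR called 0, with 19 unadjusted), with *Tpp1* the lowest at 0.63 (interval 0.25 to 1.00, limma adjusted p = 0.252). Both counts stayed at 0 without the 2 libraries that went against their label, where 0.62% and 0.523% of all genes were called in either direction. Without mouse 1 of the ND-fed CCL19-KI group without ligature, however, 11 and 9 members were called. How many of all genes were called in that fit is not given, so these 2 counts cannot be set against a background. The larger number of calls in CCL19-KI mice was thus not matched by a called difference of the effect between genotypes.

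Genotype itself gave 0 calls over all diets, as 0.459% of all genes were called in either direction (limma; 2 members at an unadjusted p below 0.05, and 0 called by edgeR), and the members' median was -0.07 (-0.02 over all genes). Under the ND 1 member was lower in CCL19-KI than in WT mice, where 1.65% of all genes were called lower: *Atp6v1h*, a regulatory V1 subunit, fell by 0.44 ± 0.11 on the log2 scale (limma adjusted p = 0.0384). It was 107, 75.3 and 91.2 in WT mice without ligature and 62.8, 65.1 and 67.2 in ligatured WT mice, against 57.7, 55.7 and 53.9 and 63.7, 53.4 and 53.1 in the CCL19-KI groups. The CCL19-KI mice overlapped with the WT mice in 1 value only, 63.7. Over the members the median under the ND was -0.38 (-0.02 over all genes), 36 of 37 were below 0 and 20 had an unadjusted p below 0.05, and edgeR called 1 of them.

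Without the 2 libraries that went against their label 12 members were lower under the ND in CCL19-KI mice, with 7.06% of all genes lower, including *Ctsd* (-0.94, limma adjusted p = 0.0208), *Ctsb* (-0.81, limma adjusted p = 0.0298), *Lamp1* (-0.54, limma adjusted p = 0.0226) and *Atp6v1h* (-0.51, limma adjusted p = 0.00558). Over all diets 3 members were then lower, *Atp6v0d1*, *Atp6v1e1* and *Atp6v1h*, by 0.19 to 0.27, where 3.82% of all genes were called lower. Leaving out 1 ND mouse at a time gave 0 calls under the ND for 9 of the 12 mice. For the other 3 it gave 10 (mouse 2 of the WT group without ligature), 17 (mouse 1 of the CCL19-KI group without ligature) and 9 (mouse 1 of the ligatured CCL19-KI group). The share of all genes called lower is not given for these fits. Adipocyte markers separated the genotypes in full under the ND: their mean log2 level was 9.82 to 10.66 in the 6 WT mice and 8.45 to 9.78 in the 6 CCL19-KI mice. With the adipocyte score as a covariate 0 members were called under the ND by limma, and 6 had an unadjusted p below 0.05. Hepatocyte markers ran in opposite directions with and without ligature. Without ligature their mean log2 level was 0.64 to 0.92 in WT mice and 4.78, 10.1 and 10.4 in CCL19-KI mice, and the pair at 10.1 and 10.4 had the module scores 6.05 and 6.19. In ligatured mice it was 8.26, 8.36 and 5.64 in WT mice, at module scores of 6.50, 6.45 and 6.58, and 8.10, 0.60 and 0.74 in CCL19-KI mice, at module scores of 6.57, 6.16 and 6.22. With the hepatocyte, kidney tubule and epididymis scores as covariates 2 members were called. For this fit and the fit with the adipocyte score the share of all genes is not given.

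Under the 40% HFD and the 60% HFD no member differed between genotypes, and 0.0392% and 0.459% of all genes were called in either direction (1 member each at an unadjusted p below 0.05 by limma, 0 called by edgeR). The members' medians there were 0.10 and 0.03, against -0.03 and 0.03 over all genes. Both counts were also 0 without the 2 libraries that went against their label, with 1 member each at an unadjusted p below 0.05. In that fit 0.102% and 2.42% of all genes were called in either direction. In ligatured mice alone, the setting of the study's own RNA comparison, 0 members were called under the ND, the 40% HFD or the 60% HFD, against 1.03%, 0.0112% and 0.0112% of all genes. There 3, 0 and 0 members had an unadjusted p below 0.05 and edgeR called 0 in each. The study called genes by another rule, edgeR at an unadjusted p up to 0.05 with a ratio past 1.5 or 0.67. Under the 40% HFD it lists *Gpnmb* and *Atp6v0d2*, which are no members, among the most raised genes of this comparison. The medians over the members were -0.19, 0.08 and 0.15, against -0.02, 0.01 and -0.0024 over all genes.

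The ligature, averaged over diets and genotypes, gave 0 calls among the members and 0.325% over all genes (limma; 1 member, *Ctsa*, at an unadjusted p below 0.05, and 0 called by edgeR). The count was also 0 without the 2 libraries that went against their label, where 0.358% of all genes were called in either direction. The members' median was 0.04 (-0.02 over all genes), and their values lay between -0.18 and 0.18. The 60% HFD effect was not called different between ligatured and other mice for any member, with 0% of all genes called. The median of that difference was 0.33 (-0.04 over all genes), 10 members had an unadjusted p below 0.05, edgeR called 0, and *Atp6v1e1* had the lowest adjusted p (0.63 ± 0.17, limma adjusted p = 0.121). Without the 2 libraries that went against their label 4 pump subunits passed, *Atp6v1e1* (0.81, limma adjusted p = 0.00745), *Atp6v0d1* (0.56, limma adjusted p = 0.0178), *Atp6v1h* (0.54, limma adjusted p = 0.0325) and *Atp6v1a* (0.75, limma adjusted p = 0.035), where 5.17% of all genes were called in either direction. Both libraries left out came from mice without ligature.

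Of the 6 members with TCACGTGA in their promoter window, 5 were called higher under the 60% HFD against the ND, *Mcoln1* being the exception, and their median log2 fold change was 0.49. Of the 27 with a window but no such match 16 were called, and their median was 0.40. The values of the 6 ran from 0.08 to 0.99 and those of the 27 from -0.14 to 1.10, so the groups lay over each other.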

How the data were processed

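RNA of eWAT was depleted of rRNA and sequenced as directional libraries, with 1 library per mouse. According to the authors, reads were trimmed with Trimmomatic 0.38, mapped to mouse transcripts with Bowtie2 within RSEM 1.3.0, summed to gene counts, and scaled with edgeR. The build is mm10 in the study's methods and GRCm39 in the submitters' processing notes, and the annotation release is not given in the sources used here. The deposited signal values are thus normalized CPM, set by the authors, whose columns sum to 799716 to 1208061. In each library, dividing by the smallest value above 0 gave whole numbers for 100% of the values (tolerance 0.01), which were taken as reads; 1 read is worth 0.0472 to 0.0834.

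Gene IDs were matched to symbols through a reference table (124 of 24750 had none). Values were transformed to log2(normalized CPM + 1), which understates the change of low genes, and 17852 genes reaching 1 in 3 or more libraries entered 1 fit of all 36 mice and 12 groups in R 4.3.3, by limma 3.58.1 (lmFit; eBayes, trend on intensity). Diet effects are means over the 4 combinations of genotype and ligature. P-values were adjusted over all genes by the Benjamini-Hochberg method, and an adjusted p below 0.05 is a call. The p-values set each difference against the spread between mice within groups. The fit was tested on simulated data. No pair of the 630 pairs of libraries held identical reads. Members with the 6 largest rises and 4 largest falls per comparison, and fixed members of each role, were named. The members, the marker lists and the tests were chosen with earlier results of these data known. In all, 15 alternatives were planned and 3 were added after seeing the data (leaving out the 2 libraries whose *Ccl19* went against their label was one of the latter), among them edgeR 4.0.16 (quasi-likelihood) on the recovered reads. Other steps used Python 3.11.15.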

Additional observations from a re-analysis of the deposited data

How the results depend on the processing

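Over 15 planned and 3 added alternatives the 24 calls of the 60% HFD against the ND stayed between 16 and 31, except in the following cases. With the lipid-associated macrophage score as a covariate 0 were called. The study's thresholds put on the limma fit (a ratio past 1.5 or 0.67, unadjusted p up to 0.05) gave 11. The share of all genes called higher moved too. It was 23.8% with sample weights (31 members) and 7.12% with quantile normalization (16), against 10.2% in the main fit. For the other comparisons in this section the share of all genes is not given, so these counts alone do not set the members apart. The cause of these and the following changes was not tested. The lipid-associated macrophage covariate also gave 0 calls for the 40% HFD against the ND, the 60% against the 40% HFD and the 60% HFD in WT mice, 3 for the 60% HFD and 2 for the 40% HFD in CCL19-KI mice, and 4 for genotype under the ND. The sample-weight estimation stopped before converging; sample weights called 26 for the 40% HFD, 4 between the high-fat diets, 14 and 33 for the 60% HFD in WT and the 40% HFD in CCL19-KI mice, 5, 30, 1 and 20 for genotype over all diets, under the ND, under the 60% HFD and in ligatured ND mice, 2 for the ligature, and 28, 23 and 15 for the differences of the diet effect (60% and 40% HFD by genotype, 60% HFD by ligature). Quantile normalization called 1 for the 40% HFD, 17 and 1 for the 60% and 40% HFD in CCL19-KI mice and 0 for genotype under the ND. Without a filter 3 were called for the 40% HFD and 1 between the high-fat diets, and with a filter at a mean of 5, 4 for genotype under the ND. By edgeR 2 were called for the 40% HFD and 4 for it in CCL19-KI mice. Fits of only the groups compared called 0 for the 40% HFD, 4 between the high-fat diets, 2 and 4 for the 60% and 40% HFD in CCL19-KI mice and 0 for genotype under the ND. The macrophage covariate gave 9 for the 40% HFD, 9 for the 60% HFD in WT mice, 2 for genotype under the ND and 1 for the genotype difference of the 60% HFD effect; the adipocyte covariate gave 10 between the high-fat diets, 0 for the 40% HFD in CCL19-KI mice and 0 for genotype under the ND. The hepatocyte, kidney tubule and epididymis covariates gave 0 for the 40% HFD, between the high-fat diets and for the 60% HFD in WT mice, 4 for the 40% HFD in CCL19-KI mice and 2 for genotype under the ND. Leaving out the 3 libraries that stood apart gave 3 for the 40% HFD, 4 between the high-fat diets, 4 for the 60% HFD in WT mice and 0 for genotype under the ND. Leaving out the 2 libraries against their label gave 1 for the 40% HFD, 1 for the 60% HFD in WT mice, 3 and 12 for genotype over all diets and under the ND, and 4 for the ligature difference. The study's criteria gave 1 for the 40% HFD, 3 for genotype under the ND, 1 in ligatured ND mice, and 4, 12 and 4 for the differences of the diet effect.

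The replicate numbers only name the mice: deviations of 198 same-numbered pairs had a mean correlation of -0.008 (73 above 0.1), and 10 of 36 libraries were closest to their own number. With the replicate block 25 members were called for the 60% HFD, 1 between the high-fat diets and 3 for genotype under the ND. Leaving out each mouse in turn gave 21 to 27 calls for the 60% HFD, 0 to 11 for the 40% HFD, 0 to 4 between them, 1 to 9 and 15 to 28 for the 60% HFD in WT and CCL19-KI mice, 0 to 18 for the 40% HFD in CCL19-KI mice, 0 to 1 for genotype, 0 to 17 under the ND, and 0 to 11, 0 to 9 and 0 to 1 for the differences of the diet effect. Of the log2 fold changes for the 60% HFD, the lipid-associated macrophage covariate reversed those of *Ctsk* (-0.14), *Gpnmb* (-0.52), *Tcirg1* (-0.30) and *Tfeb* (-0.28). Quantile normalization reversed *Mcoln1* (-0.024), *Tfeb* (-0.050), *Tfe3* (-0.066) and *Acp5* (-0.081). *Tfeb* was also below 0 with the adipocyte (-0.047) or the hepatocyte, kidney tubule and epididymis covariates (-0.045), and leaving out 1 mouse moved it between -0.015 (without mouse 2 of the ligatured CCL19-KI group on the 60% HFD) and 0.076. *Acp5* was below 0 without the 3 libraries that stood apart (-0.081) and without the 2 against their label (-0.035), and leaving out 1 mouse moved it between -0.021 (without mouse 2 of the ligatured CCL19-KI group on the ND) and 0.118.

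With 3 mice per group, a difference within 1 combination of diet, genotype and ligature has wide error, and the comparisons under 1 diet rest on 6 mice against 6. The depth was no limit for the members, which had at least 64 reads in each library.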
